A study of Homo sapiens with 15 samples.

Results

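IL2RG encodes the common gamma chain of cytokine receptors, and it was examined together with the receptor chains, the ligand, the kinases and the transcription factors it works with. The 10 genes were taken by gene symbol from a fixed list, IL2RG, IL4R, IL13RA1, IL7R, IL15, IL15RA, JAK1, JAK3, STAT6 and STAT5A, and all 10 of 10 were present among the 33158 gene symbols measured. RNA sequencing was carried out on 15 libraries from 3 triple negative breast cancer cell lines, with 3 libraries in each of 5 groups. The study asked which genes separate breast cancer stem cells (CSCs) from other cells of a line. CSCs of SUM149PT and HCC1937 were the sorted cells with CD44 on the surface and little or no CD24, and non-CSCs were all remaining cells of the same line. SUM159PT was sequenced without sorting and was treated in the study as CSCs because most of its cells carry the CSC surface pattern. None of the 5 groups received a treatment. The CSC groups are therefore defined by a pair of surface proteins, and for SUM159PT the line and the missing sort cannot be told apart.

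The common gamma chain has no ligand of its own and forms signalling receptors for IL-2, IL-4, IL-7, IL-9, IL-15 and IL-21 by pairing with a ligand-specific chain. JAK3 binds the common gamma chain and JAK1 binds its partners, and the activated receptors act mainly through STAT5 and, for IL-4, STAT6. The pathway is best known from lymphocytes, while in epithelial cells IL4R pairs with IL13RA1 to form a receptor for IL-4 and IL-13 that needs no common gamma chain.

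IL2RG lies at chrX:71107404-71112108 on the minus strand (GRCh38, GENCODE release 29), and a readthrough gene, AL590764.2, at chrX:71103987-71111575 overlaps it on the same strand. AL590764.2 had no entry of its own among the measured genes, so reads from both cannot be told apart. The qPCR primers designed in the study for IL2RG are shown because they mark the part of the gene that both annotations share. In GENCODE release 29 the forward primer matched chrX:71110633-71110655 and the reverse primer chrX:71110261-71110283 on GRCh38, in exons 3 and 4 of a protein-coding IL2RG transcript, where both are coding, with a product of 187 bases. A product of 395 bases was predicted from an IL2RG transcript with a retained intron, and 8 transcripts of AL590764.2 gave the 187-base product.
IL2RG forward primer: gtgcagccactatctattctctg
IL2RG reverse primer: gtgaagtgttaggttctctggag

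Promoter sequence, 250 bases before to 50 bases after the gene start, was found for 9 of the 10 genes in the RefSeq table for GRCh38.p14, and not for IL15. Both strands were searched for CCGGAAG, a core recognized by ETS family factors, for TTC and GAA spaced by 3 bases, typical of STAT5, and for TTC and GAA spaced by 4 bases, preferred by STAT6. CCGGAAG was present in the promoters of IL2RG, JAK1 and JAK3 and in 10.7% of 27305 promoters of the same length. The spacing of 3 bases was present in the promoter of IL15RA and in 7.88% of all promoters, and the spacing of 4 bases in that of STAT5A and in 6.37%. The 4 promoters printed here belong to IL2RG and its kinase JAK3, which share a motif, and to IL15RA and STAT5A, which hold a STAT spacing, with the match in capitals. A match is a string of letters and was not tested for binding. The window of IL2RG was chrX:71111528-71111827 on the minus strand, with the match at position -68 from the gene start. Gene starts for these windows are those of the RefSeq table, and the IL2RG window lies inside the GENCODE span given above. The JAK1 window, not printed, was chr1:65067697-65067996 and lies outside the GENCODE span of JAK1, chr1:64833229-64966504. For JAK3 the window was chr19:17847933-17848232 on the minus strand, with the match at -151. The window of IL15RA was chr10:5977997-5978296 on the minus strand, with the match at -127, and that of STAT5A was chr17:42287189-42287488 on the plus strand, with the match at -229.
IL2RG promoter: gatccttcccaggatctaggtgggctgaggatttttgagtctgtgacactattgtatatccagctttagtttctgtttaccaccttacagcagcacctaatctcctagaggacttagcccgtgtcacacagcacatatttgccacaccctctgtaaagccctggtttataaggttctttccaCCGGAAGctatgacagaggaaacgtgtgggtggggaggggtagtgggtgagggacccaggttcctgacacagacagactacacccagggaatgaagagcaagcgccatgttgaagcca
JAK3 promoter: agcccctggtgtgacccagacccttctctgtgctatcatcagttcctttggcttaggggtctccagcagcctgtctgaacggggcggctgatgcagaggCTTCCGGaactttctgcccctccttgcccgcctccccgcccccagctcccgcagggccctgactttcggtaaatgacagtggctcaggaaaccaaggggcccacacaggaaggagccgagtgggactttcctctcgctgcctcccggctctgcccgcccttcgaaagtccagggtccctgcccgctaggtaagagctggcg
IL15RA promoter: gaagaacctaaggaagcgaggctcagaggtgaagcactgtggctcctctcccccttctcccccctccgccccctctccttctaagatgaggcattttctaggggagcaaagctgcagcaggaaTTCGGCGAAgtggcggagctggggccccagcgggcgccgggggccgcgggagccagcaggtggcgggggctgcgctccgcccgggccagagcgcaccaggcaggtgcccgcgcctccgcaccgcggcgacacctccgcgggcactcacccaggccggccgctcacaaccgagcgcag
STAT5A promoter: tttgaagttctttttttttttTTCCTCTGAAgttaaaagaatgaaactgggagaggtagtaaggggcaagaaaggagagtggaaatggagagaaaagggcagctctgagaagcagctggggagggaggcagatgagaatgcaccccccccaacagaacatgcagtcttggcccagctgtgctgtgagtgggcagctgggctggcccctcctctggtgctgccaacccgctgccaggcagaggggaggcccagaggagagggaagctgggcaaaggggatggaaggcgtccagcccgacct

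Expression is given in FPKM, fragments scaled by transcript length and library total, which allows levels to be compared between genes. Sequencing depth is unknown because no counts were part of the data. FPKM summed over genes came to between 291276.5 and 366532.5 in the 12 sorted libraries and to between 634746.2 and 652081.7 in SUM159PT, and 8534 to 8670 genes exceeded 1 FPKM in SUM159PT against 11249 to 11997 in the sorted libraries. The SUM159PT libraries thus stood apart from the rest. Comparisons of SUM159PT with sorted CSCs for the fixed list that holds IL2RG are given separately, most of them also with a correction for GC content. FPKM levels in SUM159PT, and ratios formed from them, are given without this correction. The sort was visible in the RNA. CD24 was at 7.97, 7.64 and 7.61 FPKM in SUM149PT CSCs against 147, 137 and 134 FPKM in non-CSCs, and at 23.6, 22.5 and 23.9 FPKM in HCC1937 CSCs against 167, 141 and 142 FPKM in non-CSCs. CD44 RNA was higher in SUM149PT CSCs by 0.39 on the log2 scale (adjusted p = 0.00168), while in HCC1937 the difference was 0.12 (adjusted p = 0.314). In SUM159PT CD24 was at 0.759, 0.682 and 0.745 FPKM, and CD44, at 28.6, 29.4 and 28.4 FPKM, was below every sorted library, non-CSCs included. CD44 has 45.3% GC. Among genes of 42.3% to 48.8% GC the median log2 difference of SUM159PT was -1.34 against SUM149PT CSCs and -1.55 against HCC1937 CSCs. The part of GC content in the place of CD44 was not tested.

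Epithelial markers moved with the sort as well. All 8 of 8 (EPCAM, CDH1 and 6 keratins) were lower in CSCs in both lines, where 41.5% of all genes were lower in SUM149PT and 15.3% in HCC1937. Their summed level was 193.0, 202 and 198 FPKM in the 3 SUM149PT CSC libraries against 2395, 2321 and 2317 FPKM in non-CSCs, with KRT17 and KRT19 the most abundant. In HCC1937 it was 732, 681 and 618 FPKM in CSCs against 1845, 1855 and 1600.3 FPKM in non-CSCs. None of the 8 was listed at 0 in any library, and their part in the results for the receptor genes was not tested.

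Because the common gamma chain is a lymphocyte gene, 19 lymphocyte and leukocyte markers were examined too. Of these, 4 (CD3E, MS4A1, GZMB and TYROBP) were listed at 0 in all 15 libraries, 13 stayed below 1 FPKM in every library, and PTPRC, the pan-leukocyte marker CD45, reached at most 0.0986 FPKM. The 6 that reached 1 FPKM included CD14, CD68 and LAPTM5, with highest values of 65.0, 49.9 and 55.7 FPKM. The summed marker level ran from 21.7 to 23.3 FPKM in SUM149PT CSCs and from 117 to 123.5 FPKM in SUM149PT non-CSCs, from 100.3 to 116 FPKM in HCC1937 CSCs and from 77.3 to 82.5 FPKM in HCC1937 non-CSCs, and from 104 to 112 FPKM in SUM159PT. The most abundant marker was CD68 in SUM149PT CSCs and HCC1937 non-CSCs, CD14 in SUM149PT non-CSCs and HCC1937 CSCs, and LAPTM5 in SUM159PT. The sum was thus mostly CD14, CD68 and LAPTM5, and its part in the IL2RG values was not tested.

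**Figure D1:**
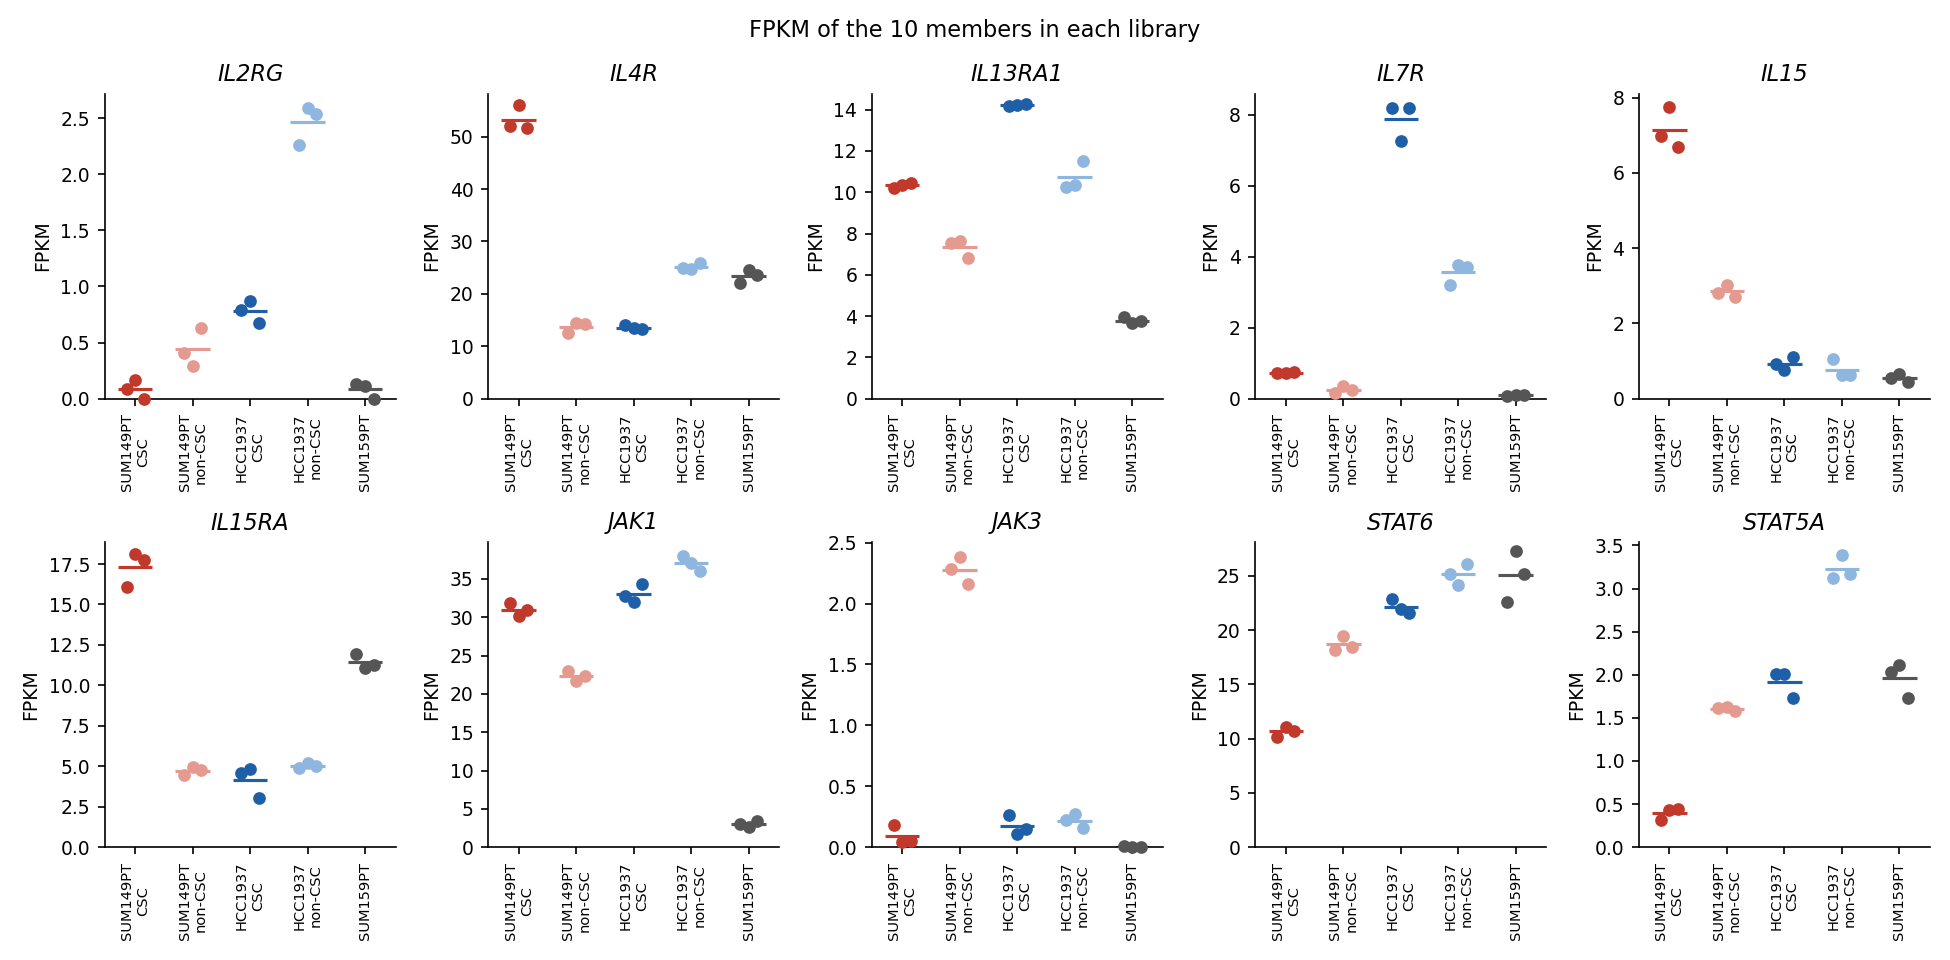
FPKM of the 10 genes in each of the 15 libraries, one panel per gene with its own linear axis from 0; points are libraries and bars are group means (n = 3). IL2RG stayed at or below 2.59 FPKM in all libraries, while IL4R reached 56.0 FPKM and JAK1 38.04 FPKM.

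IL2RG was a low transcript in all groups. In HCC1937 non-CSCs, where it was highest, it was at 2.26, 2.59 and 2.54 FPKM, and in HCC1937 CSCs at 0.787, 0.871 and 0.676 FPKM. SUM149PT non-CSCs had 0.408, 0.294 and 0.627 FPKM, and SUM149PT CSCs had 0.0884 and 0.171 FPKM with the third library listed at 0. SUM159PT had 0.130 and 0.117 FPKM, again with 1 library listed at 0. The libraries of neighbouring groups in this order did not overlap, except those of SUM149PT CSCs and SUM159PT, which could not be separated. HCC1937 non-CSCs ranked IL2RG above 70.4% of all genes, SUM159PT above 58.3% and SUM149PT CSCs above 53.9%, so by rank SUM159PT was not the lowest group. Its libraries also listed more genes at 0, 16525 to 16842, against 15019 to 15506 in SUM149PT CSCs. The part of this in the ranks was not tested.

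IL4R, which binds IL-4 and is shared by both IL-4 receptor types, was at 52.0, 56.0 and 51.6 FPKM in SUM149PT CSCs and at 12.5, 14.5 and 14.2 FPKM in SUM149PT non-CSCs. HCC1937 ran the other way, with IL4R at 14.0, 13.4 and 13.2 FPKM in CSCs and 25.0005, 24.7 and 25.8 FPKM in non-CSCs, and SUM159PT had 22.2, 24.6 and 23.6 FPKM. SUM149PT CSCs were thus above every other library, and SUM149PT non-CSCs overlapped HCC1937 CSCs at the bottom of the order.

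IL13RA1, the chain that replaces the common gamma chain in the IL-4 and IL-13 receptor of non-lymphoid cells, was at 10.2, 10.4 and 10.47 FPKM in SUM149PT CSCs and at 7.52, 7.63 and 6.82 FPKM in non-CSCs. It was at 14.2, 14.3 and 14.3 FPKM in HCC1937 CSCs, at 10.2, 10.4 and 11.5 FPKM in HCC1937 non-CSCs and at 3.94, 3.66 and 3.74 FPKM in SUM159PT. The CSC libraries lay above the non-CSC libraries in both lines, HCC1937 non-CSCs overlapped SUM149PT CSCs, and SUM159PT was lowest in FPKM, a place that IL13RA1 did not keep once the GC trend described below was removed (0.44 and 0.14 higher than in SUM149PT and HCC1937 CSCs).

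IL7R, the private chain for IL-7 and part of the TSLP receptor, separated the lines. Its levels were 8.18, 7.27 and 8.20 FPKM in HCC1937 CSCs and 3.21, 3.77 and 3.72 FPKM in HCC1937 non-CSCs. In SUM149PT it was at 0.727, 0.728 and 0.752 FPKM in CSCs and 0.149, 0.360 and 0.237 FPKM in non-CSCs, and SUM159PT had 0.0882, 0.0895 and 0.0987 FPKM. No neighbouring groups overlapped in this order, and CSCs were above non-CSCs in each line. The lowest place of SUM159PT held in FPKM only, since with the GC trend removed IL7R there was 0.07 above SUM149PT CSCs.

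IL15RA presents IL-15 to cells that carry the beta and gamma chains. It was at 16.1, 18.1 and 17.8 FPKM in SUM149PT CSCs against 4.43, 4.97 and 4.78 FPKM in SUM149PT non-CSCs. HCC1937 had 4.59, 4.82 and 3.06 FPKM in CSCs and 4.87, 5.20 and 5.005 FPKM in non-CSCs, and SUM159PT had 11.96, 11.1 and 11.2 FPKM. SUM149PT CSCs and SUM159PT stood above the other 3 groups, whose neighbours in the order overlapped.

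The ligand IL15 followed its receptor within SUM149PT. It was at 6.97, 7.75 and 6.69 FPKM in CSCs and 2.82, 3.02 and 2.71 FPKM in non-CSCs. In HCC1937 the values were 0.922, 0.758 and 1.10 FPKM in CSCs and 1.04, 0.632 and 0.624 FPKM in non-CSCs, and in SUM159PT 0.550, 0.654 and 0.446 FPKM. Both SUM149PT groups were above the rest in FPKM, and neighbouring groups among the remaining 3 overlapped. IL15 in SUM159PT did not keep this place with the GC trend removed (2.05 above HCC1937 CSCs) or after quantile normalization (1.08 above them).

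JAK1 and JAK3, the kinases at the partner chains and at the common gamma chain, were present at very unequal levels. JAK1 was at 31.8, 30.2 and 30.9 FPKM in SUM149PT CSCs, 23.0, 21.7 and 22.3 FPKM in SUM149PT non-CSCs, 32.8, 32.0 and 34.3 FPKM in HCC1937 CSCs, 38.04, 37.1 and 36.1 FPKM in HCC1937 non-CSCs and 3.03, 2.68 and 3.41 FPKM in SUM159PT. JAK3 reached 2.28, 2.39 and 2.16 FPKM in SUM149PT non-CSCs and only 0.181, 0.0412 and 0.0536 FPKM in SUM149PT CSCs. In HCC1937 it was at 0.261, 0.110 and 0.145 FPKM in CSCs and 0.225, 0.273 and 0.154 FPKM in non-CSCs, and in SUM159PT 1 library had 0.0072 FPKM and the others were listed at 0. JAK3 above 1 FPKM was therefore seen in SUM149PT non-CSCs and in no other group.

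STAT6, the transcription factor activated by IL-4 and IL-13, was at 10.2, 11.1 and 10.7 FPKM in SUM149PT CSCs and 18.1, 19.5 and 18.4 FPKM in non-CSCs. It was at 22.9, 22.0 and 21.5 FPKM in HCC1937 CSCs, 25.1, 24.1 and 26.1 FPKM in HCC1937 non-CSCs and 22.6, 27.3 and 25.2 FPKM in SUM159PT, which overlapped both HCC1937 groups. STAT5A, activated by most cytokines of the family, was at 0.321, 0.437 and 0.448 FPKM in SUM149PT CSCs and 1.61, 1.63 and 1.58 FPKM in non-CSCs. HCC1937 had STAT5A at 2.01, 2.00 and 1.73 FPKM in CSCs and 3.13, 3.39 and 3.16 FPKM in non-CSCs, and SUM159PT, at 2.03, 2.11 and 1.74 FPKM, overlapped HCC1937 CSCs. Both factors were lowest in SUM149PT CSCs. STAT5A has a near-identical neighbour, STAT5B, so its level is uncertain. The mean of STAT5B was 4.63 FPKM in SUM149PT CSCs against 3.89 FPKM in non-CSCs. In HCC1937 it was 4.88 FPKM in CSCs against 3.96 FPKM in non-CSCs, so the mean of STAT5B was higher in CSCs of both lines. In HCC1937 this difference was not called, since none of the 7 STAT factors tested was called higher in CSCs there.

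Of the chains that join IL2RG or IL4R in a receptor, IL4R, IL13RA1 and IL15RA exceeded 3 FPKM in every library. IL7R exceeded 3 FPKM only in HCC1937. In HCC1937 non-CSCs the mean level of IL4R was 10.2 times that of IL2RG, IL13RA1 4.35 times, IL15RA 2.04 times and IL7R 1.45 times. In HCC1937 CSCs the same ratios of mean levels were 17.4 for IL4R, 18.3 for IL13RA1, 5.34 for IL15RA and 10.1 for IL7R, and in SUM149PT non-CSCs they were 30.99, 16.5, 10.7 and 0.562. Ratios were not formed for SUM149PT CSCs and SUM159PT, where a library listed IL2RG at 0.

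IL2RB, the beta chain without which IL-2 and IL-15 do not signal, reached at most 0.128 FPKM in any library. IL2RA, the alpha chain of the IL-2 receptor, was listed at 0 in all 15 libraries, as were IL9R and CRLF2, the TSLP receptor chain. IL9R and CRLF2 lie in the pseudoautosomal regions, where 16 of 18 protein-coding genes were listed at 0 throughout, against 12.2% of 18316 other protein-coding genes, so a 0 listed for these genes cannot be told apart from a missing estimate. Of the ligands, IL4, IL9 and IL21 were listed at 0 in all libraries, and IL2 in all but the second SUM149PT CSC library, at 0.120 FPKM.

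**Figure D2:**
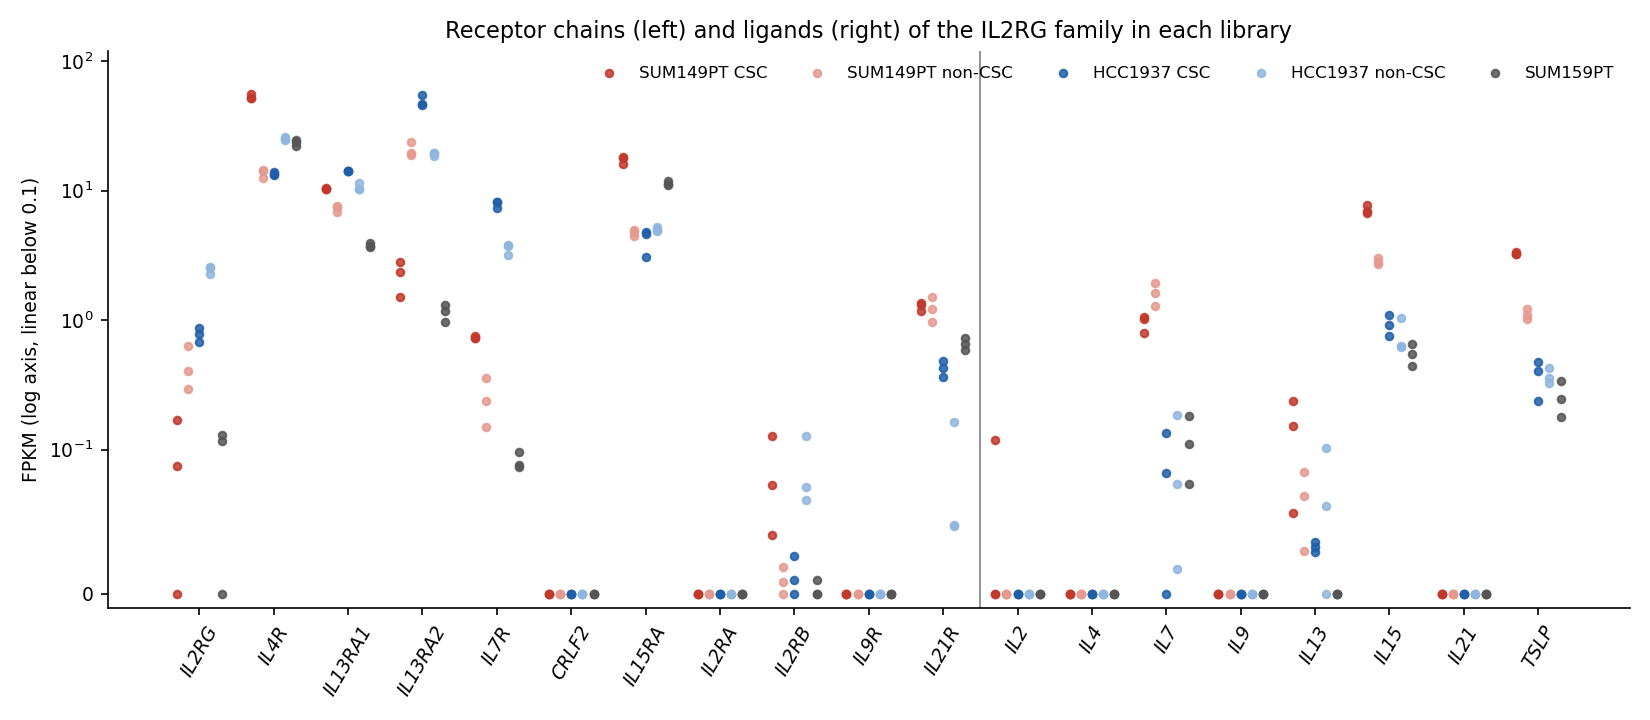
FPKM of receptor chains (left of the line) and ligands (right) in each library, on a log axis that is linear below 0.1 FPKM; colours give the 5 groups. IL2RB reached at most 0.128 FPKM, and IL2RA, IL9R and CRLF2 were listed at 0 in all 15 libraries.

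IL21R, the private chain for IL-21, was at 1.32, 1.35 and 1.17 FPKM in SUM149PT CSCs and 1.23, 1.51 and 0.968 FPKM in non-CSCs, which overlapped (log2 difference 0.06, adjusted p = 0.728; 0.48 after quantile normalization, adjusted p = 0.0355). HCC1937 CSCs had IL21R at 0.425, 0.364 and 0.484 FPKM against 0.0470, 0.0479 and 0.164 FPKM in non-CSCs, a log2 difference of 1.54 (adjusted p = 0.00869) that lost its call without replicate 1 (adjusted p = 0.0905) or replicate 2 (adjusted p = 0.0788). IL21R was at 0.585, 0.654 and 0.734 FPKM in SUM159PT. IL7 was at 0.796, 1.05 and 1.02 FPKM in SUM149PT CSCs and 1.93, 1.61 and 1.28 FPKM in non-CSCs, a log2 difference of -0.68 (adjusted p = 0.0132) that lost its call without replicate 1 (-0.43, adjusted p = 0.0577) or replicate 2 (-0.74, adjusted p = 0.0636), and after quantile normalization (-0.26, adjusted p = 0.213). TSLP, the epithelial cytokine that signals through IL7R and was added after its values were seen, was at 3.24, 3.38 and 3.24 FPKM in SUM149PT CSCs and 1.01, 1.09 and 1.22 FPKM in non-CSCs, and rose by 1.49 on the log2 scale (adjusted p = 2.09e-05). In HCC1937 CSCs TSLP was at 0.405, 0.237 and 0.472 FPKM against 0.359, 0.327 and 0.428 FPKM (log2 difference -0.03, adjusted p = 0.937). IL13, the ligand of the receptor of IL4R and IL13RA1, was also added after its values were seen. It was at 0.153, 0.236 and 0.0559 FPKM in SUM149PT CSCs and 0.0848, 0.0677 and 0.0298 FPKM in non-CSCs (log2 difference 0.57, adjusted p = 0.137; 0.73 without replicate 3, adjusted p = 0.0297). The IL13 difference also passed after quantile normalization (0.99, adjusted p = 0.0365), with the GC trend removed (0.81, adjusted p = 0.0448) and with a replicate block (adjusted p = 0.0482). IL13 reached at most 0.103 FPKM in HCC1937 and was listed at 0 in SUM159PT.

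IL13RA2, a receptor for IL-13 that is regarded as a decoy, changed in opposite directions in the lines. It was at 1.52, 2.79 and 2.36 FPKM in SUM149PT CSCs and at 23.9, 18.8 and 19.5 FPKM in non-CSCs, 9.32-fold lower by the group means (log2 difference -3.20, adjusted p = 7.28e-05). HCC1937 CSCs had IL13RA2 at 54.3, 47.0 and 46.0 FPKM and non-CSCs at 18.5, 19.6 and 19.6 FPKM, 2.55-fold higher (log2 difference 1.34, adjusted p = 0.000462). SUM159PT had 0.967, 1.17 and 1.32 FPKM. Relative to the mean level of IL13RA1, IL13RA2 was at 0.215 in SUM149PT CSCs, 2.83 in SUM149PT non-CSCs, 3.45 in HCC1937 CSCs, 1.79 in HCC1937 non-CSCs and 0.304 in SUM159PT.

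Within SUM149PT, CSCs had more IL4R, IL15RA, IL15, IL7R, IL13RA1 and JAK1 and less JAK3, STAT5A and STAT6 RNA than non-CSCs. By the ratio of mean FPKM, IL4R was 3.88-fold higher, IL15RA 3.66-fold, IL7R 2.96-fold, IL15 2.50-fold, IL13RA1 1.41-fold and JAK1 1.39-fold, while JAK3 was 24.8-fold, STAT5A 3.99-fold and STAT6 1.75-fold lower. For JAK3, which was low in CSCs, the ratio was 47.9-fold without replicate 1 and 18.9-fold without replicate 2. Among these 9 genes the partner chains, the ligand and JAK1 thus rose, while JAK3 and both transcription factors fell. The log2 difference on FPKM plus 0.1, a scale that understates the change of low genes, was 1.95 for IL4R (SE 0.08, adjusted p = 9.48e-06) and -3.70 for JAK3 (SE 0.27, adjusted p = 7.20e-05). Differences for the other genes were 1.85 for IL15RA (adjusted p = 9.48e-06), 1.29 for IL15 (adjusted p = 3.82e-05), 1.31 for IL7R (adjusted p = 0.00249), 0.49 for IL13RA1 (adjusted p = 0.000815), 0.47 for JAK1 (adjusted p = 0.000529), -0.80 for STAT6 (adjusted p = 8.89e-05) and -1.77 for STAT5A (adjusted p = 4.49e-05).

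IL2RG was among the candidates that the study selected from these same libraries for being lower in CSCs of both lines and low in SUM159PT. Its differences along those contrasts are therefore a description. Adjusted p-values printed for them under the processing alternatives only compare settings and are no test of IL2RG. In SUM149PT its log2 difference was -1.61, with a 95% interval from -2.65 to -0.58, and no CSC library reached the lowest non-CSC library. The size varied with the settings: it was -2.94 with a pseudocount of 0.01, -0.99 without replicate 3, -2.15 without replicate 2 and -1.70 without replicate 1. In HCC1937 the log2 difference was -1.55, with a 95% interval from -1.82 to -1.28, a 3.17-fold lower mean. The difference between the lines, formed from the same selected values and so a description too, was -0.06 (95% interval from -1.09 to 0.97), and 0.56 with a pseudocount of 1.

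Beside IL2RG, all 9 other genes passed an adjusted p of 0.05 in SUM149PT, 6 higher and 3 lower in CSCs, where 74.8% of the 16037 genes tested passed. A call in this comparison therefore sets the genes little apart. Their median absolute log2 difference was 1.31 against 0.71 over all genes tested. With stricter limits taken from the study, an adjusted p of 0.0001 and a score of 1 that is read here as an absolute log2 difference, 3 of the 10 were higher (IL4R, IL15RA and IL15) and 2 lower (JAK3 and STAT5A), where 20.5% of all genes passed in either direction. Of all calls 44.6% were in the higher direction, and 55.0% after quantile normalization, which moved the median of all genes from -0.11 to 0.11. The CSC and non-CSC libraries did not overlap for any of the 9 genes other than IL2RG. For them the exact permutation test of 3 against 3 libraries gave its smallest possible two-sided p, 0.10. The share of all genes without overlap was not computed, so this does not set the 9 genes apart. Nothing in the labels says that the libraries of a group came from separate cultures, so p-values measure the spread between these libraries, which may be technical. In bulk RNA, fewer cells that express a gene and less RNA per cell cannot be told apart.

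Within HCC1937, CSCs had more IL7R and IL13RA1 and less IL4R and STAT5A RNA than non-CSCs. IL7R was 2.21-fold higher by the group means (log2 difference 1.12, SE 0.10, adjusted p = 0.000934) and IL13RA1 1.33-fold higher (0.41, adjusted p = 0.0114). IL4R was 1.86-fold lower (-0.89, SE 0.06, adjusted p = 0.000534) and STAT5A 1.69-fold lower (-0.73, adjusted p = 0.00274). The other members did not pass, with log2 differences of 0.27 for IL15 (adjusted p = 0.442), -0.29 for IL15RA (adjusted p = 0.299), -0.17 for JAK1 (adjusted p = 0.125), -0.24 for JAK3 (adjusted p = 0.524) and -0.18 for STAT6 (adjusted p = 0.106), although the libraries of IL15RA, JAK1 and STAT6 did not overlap. Beside IL2RG, 2 of 9 genes were thus called higher and 2 lower, where 25.6% of 15582 genes were called. Their median absolute log2 difference was 0.29 against 0.24 over all genes.

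With a replicate number left out, 2 against 2 libraries remained, and calls over all genes in HCC1937 fell from 1607 higher and 2378 lower to 567 and 1004 without replicate 2. IL13RA1 lost its call when any 1 replicate number was left out (adjusted p = 0.0949, 0.151 and 0.0518 without replicates 1, 2 and 3), and STAT5A lost it without replicate 2 (adjusted p = 0.0520), while their log2 differences stayed between 0.38 and 0.46 for IL13RA1 and between -0.78 and -0.67 for STAT5A. No gene of the genome passed the stricter limits in HCC1937 with limma, 0 of 15582, where 5886 had p values up to 0.05 before adjustment and the smallest adjusted p was 0.000128. Calls in the higher direction made up 40.3% of all calls, 54.3% after rescaling to TPM and 52.9% after quantile normalization.

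**Figure D3:**
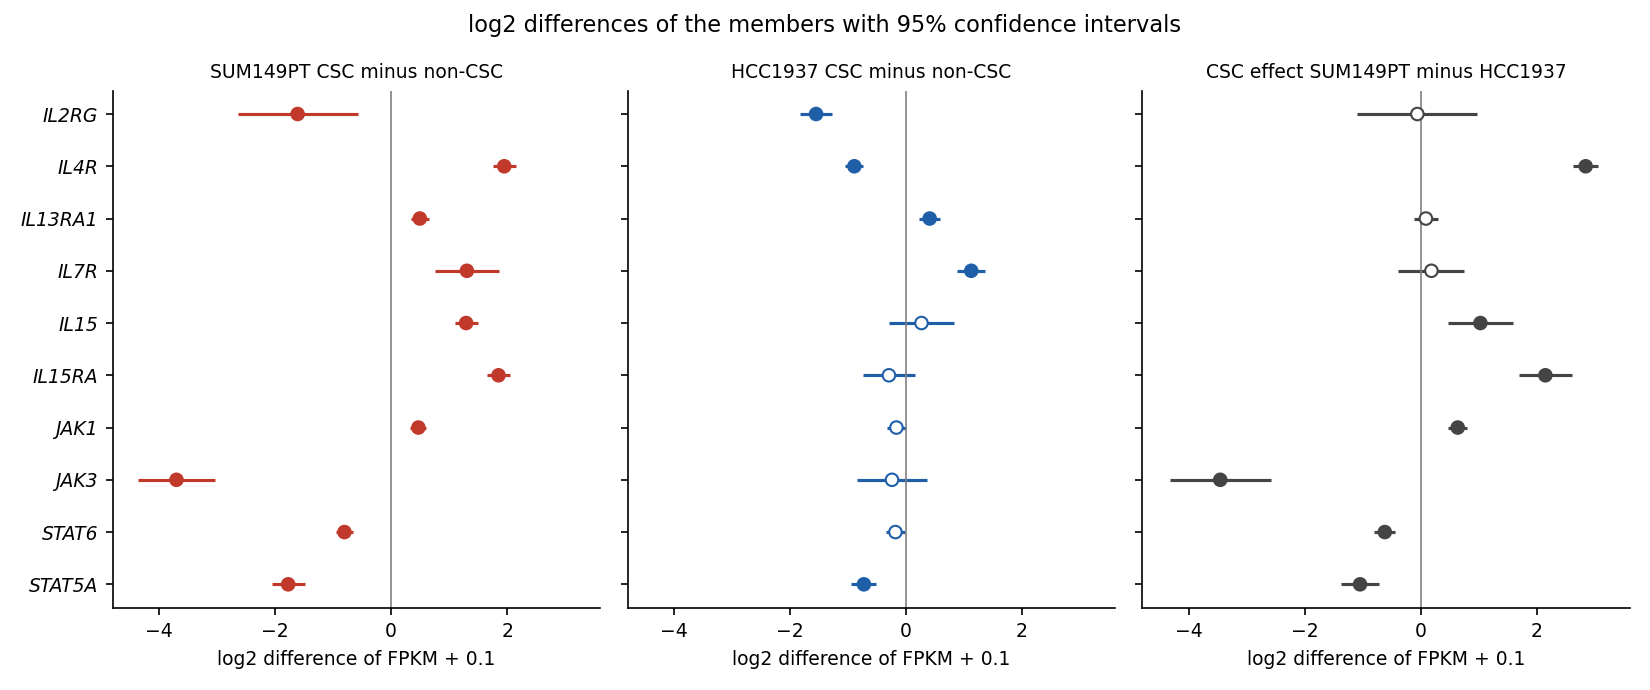
Log2 difference of FPKM + 0.1 for the 10 genes with 95% confidence intervals in SUM149PT, in HCC1937 and between them; filled points have an adjusted p of at most 0.05, and the points of IL2RG are a description because the gene was selected on these libraries. IL4R had a log2 difference of 1.95 in SUM149PT and -0.89 in HCC1937.

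The difference between CSCs and non-CSCs was itself unequal between the lines for 7 of the 9 genes other than IL2RG, where 61.1% of 16451 genes passed this test over the 12 sorted libraries. The CSC difference was larger in SUM149PT than in HCC1937 by 2.84 for IL4R (adjusted p = 1.58e-08), 2.15 for IL15RA (adjusted p = 1.13e-05), 1.03 for IL15 (adjusted p = 0.00531) and 0.63 for JAK1 (adjusted p = 4.79e-05). It was more negative in SUM149PT for JAK3, by -3.46 (adjusted p = 3.43e-05), for STAT5A, by -1.05 (adjusted p = 0.000145), and for STAT6, by -0.62 (adjusted p = 0.000106). IL13RA1 and IL7R did not pass, at 0.09 (95% interval from -0.11 to 0.29) and 0.18 (95% interval from -0.39 to 0.75). For IL7R the difference became -0.48 with a pseudocount of 1 (adjusted p = 0.00177) and 0.69 after quantile normalization (adjusted p = 0.0291).

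Across both lines, 3 of the 9 genes other than IL2RG were called in the same direction, IL13RA1 and IL7R higher and STAT5A lower in CSCs, where 16.1% of the 14423 genes tested in both lines were so called. IL2RG, lower in both, is not counted because the study selected it for this direction. IL13RA1 and STAT5A lost their calls in HCC1937 without the replicates named above. Of the same 9 genes, IL4R was the 1 called in opposite directions, beside 5.84% of all genes.

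Between the lines, HCC1937 had more IL2RG, IL7R, IL13RA1, STAT5A and STAT6 and less IL15 than SUM149PT in both fractions. In CSCs 5 of the 10 genes were called higher and 3 lower in HCC1937, where 77.0% of all genes were called, and in non-CSCs 7 higher and 2 lower, where 77.4% were called. IL7R was 10.7-fold higher in CSCs (log2 difference 3.25, adjusted p = 5.84e-08) and 14.3-fold higher in non-CSCs (3.44, adjusted p = 4.21e-08). IL2RG differed by 2.34 on the log2 scale in CSCs (adjusted p = 7.48e-05) and by 2.28 in non-CSCs (adjusted p = 9.38e-05), 5.56-fold by the means in the latter. The line with the higher IL2RG level was thus also the line with the higher IL7R, IL13RA1, STAT5A and STAT6 levels. Within each line IL7R and IL2RG went opposite ways, with IL7R higher and IL2RG lower in CSCs.

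IL15 was 7.70-fold lower in HCC1937 CSCs (log2 difference -2.83, adjusted p = 1.55e-07) and 3.72-fold lower in HCC1937 non-CSCs (-1.80, adjusted p = 5.39e-06). IL4R turned with the fraction, 3.93-fold lower in HCC1937 CSCs (-1.97, adjusted p = 1.97e-09) and 1.83-fold higher in HCC1937 non-CSCs (0.87, adjusted p = 8.68e-07). JAK3 was 10.48-fold lower in HCC1937 non-CSCs (-2.92, adjusted p = 3.77e-06), while in CSCs, where it was low in both lines, the difference was 0.54 (adjusted p = 0.0998; without replicate 1 it was 0.62, adjusted p = 0.0307). JAK1 differed little in CSCs, by 0.09 (95% interval from -0.03 to 0.21), and this turned to -0.15 under upper quartile scaling (adjusted p = 0.0451). Upper quartile scaling moved the median of all genes from 0.23 to 0.01 in CSCs and from 0.10 to -0.13 in non-CSCs.

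SUM159PT differed from the sorted CSCs in most of these genes. JAK1 was 10.2-fold lower than in SUM149PT CSCs (log2 difference -3.31, adjusted p = 4.68e-13) and 10.9-fold lower than in HCC1937 CSCs (-3.41, adjusted p = 2.82e-13). IL7R was lower by 7.98-fold and 85.5-fold and IL13RA1 by 2.74-fold and 3.76-fold. Of the 10 genes, 2 were called higher and 7 lower against SUM149PT CSCs, where 81.7% of 16373 genes were called, and 3 higher and 6 lower against HCC1937 CSCs, where 84.8% were called. Without IL2RG the counts were 2 higher and 7 lower, and 3 higher and 5 lower, of 9 genes. STAT5A was 4.88-fold and STAT6 2.35-fold higher than in SUM149PT CSCs, and IL15RA was 2.75-fold and IL4R 1.73-fold higher than in HCC1937 CSCs. IL2RG was at the level of SUM149PT CSCs (log2 difference -0.01, 95% interval from -0.82 to 0.80) and below HCC1937 CSCs (-2.36, 95% interval from -3.16 to -1.55), as a description.

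These comparisons moved with base composition and with scaling. Across genes, which do not count as replicates, the log2 difference between SUM159PT and SUM149PT CSCs rose with transcript GC content (Spearman rho 0.593 over 14188 genes), and that against HCC1937 CSCs likewise (0.512), against -0.141 and -0.180 for the comparisons within SUM149PT and HCC1937. Median log2 differences in 4 equal groups of genes, from low to high GC content, were -2.58, -1.34, -0.02 and 0.58 against SUM149PT CSCs. Among the 10 genes, IL15 (38.7% GC), IL7R (41.2%), IL13RA1 (42.9%) and JAK1 (46.2%) had the lowest GC content and JAK3 (58.5%) the highest. With the GC trend removed, a correction chosen after seeing the data, JAK1 remained lower (-2.10 and -2.01), but IL13RA1 turned to 0.44 and 0.14, IL7R to 0.07 against SUM149PT CSCs, and IL15 to 2.05 against HCC1937 CSCs. IL7R against HCC1937 CSCs was -3.03 and IL15 against SUM149PT CSCs -0.89 after the same correction. STAT5A and STAT6 stayed higher than in SUM149PT CSCs by less (1.51 and 0.79), and IL15RA and IL4R higher than in HCC1937 CSCs (1.27 and 0.57), while STAT6 against HCC1937 CSCs lost its call (0.07, adjusted p = 0.333). IL4R, IL15RA and JAK3 were -1.72, -1.12 and -1.40 against SUM149PT CSCs, and JAK3 was -1.61 against HCC1937 CSCs. For IL2RG the corrected values were 0.34 and -1.75. The part of GC content in the differences was not tested beyond this.

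**Figure D4:**
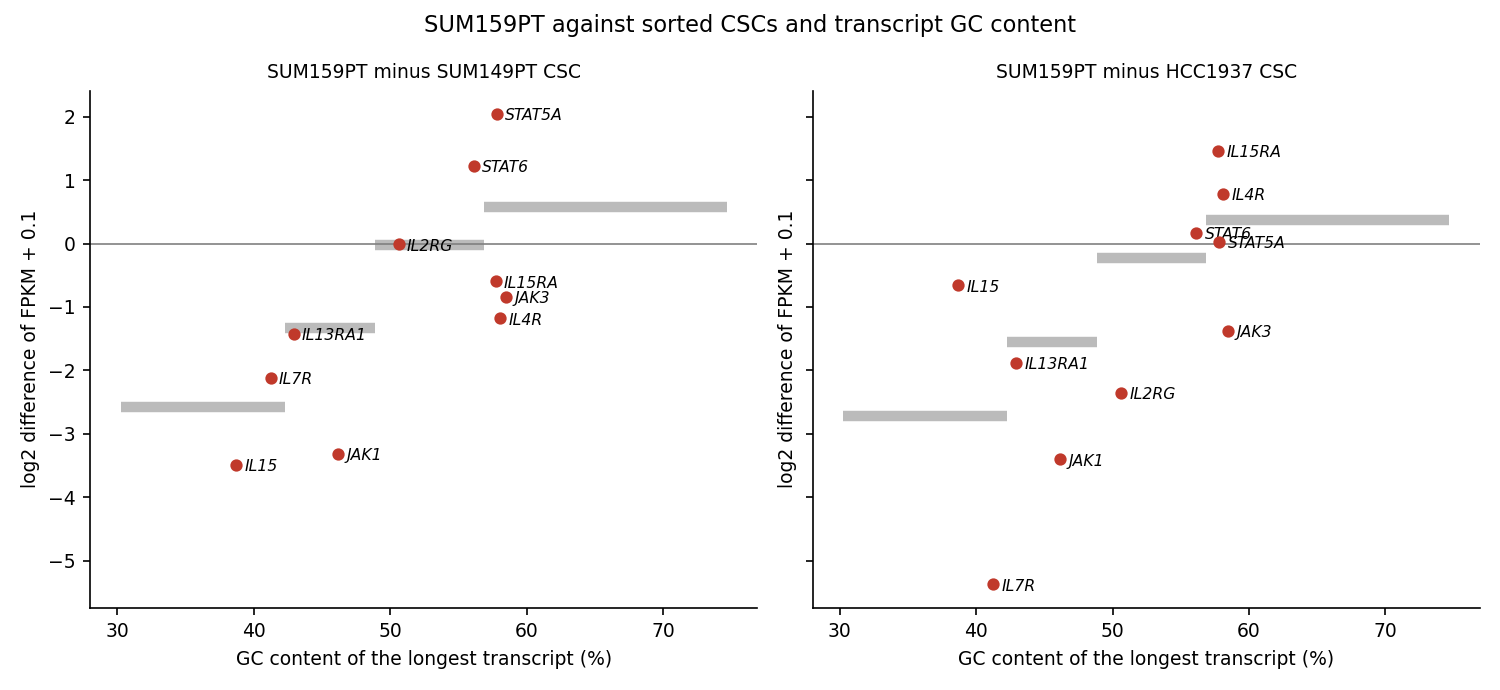
Log2 difference of FPKM + 0.1 between SUM159PT and the sorted CSCs of SUM149PT (left) and HCC1937 (right) against the GC content of each gene's longest transcript; red points are the 10 genes and grey bars mark the medians of all genes in 4 equal groups by GC content. The medians rose from -2.58 to 0.58 on the left and from -2.72 to 0.37 on the right.

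Several calls against HCC1937 CSCs also depended on the scale. Rescaling to TPM turned IL4R to -0.21, STAT6 to -0.83 and STAT5A to -0.95, and quantile normalization turned IL15 to 1.08. STAT6, at 0.17 (adjusted p = 0.0418), lost its call without replicate 2 (adjusted p = 0.326) or replicate 3 (adjusted p = 0.255), and IL15, at -0.66 (adjusted p = 0.00428), without replicate 3 (adjusted p = 0.106). Against SUM149PT CSCs, STAT6 fell from 1.22 to 0.14 with TPM (adjusted p = 0.182). Calls in the higher direction made up 34.7% against SUM149PT CSCs and 32.5% against HCC1937 CSCs, 16.9% and 17.0% with TPM, 50.2% and 50.2% after quantile normalization and 48.5% and 49.7% with the GC trend removed. The median of all genes moved from -0.60 and -0.85 to -1.44 and -1.64 with TPM.

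Other genes of the pathway were examined as fixed lists. Of 10 partner and related receptor chains, 6 could be tested in each line, with 4 called higher and 1 lower in CSCs of each, though not the same genes. In SUM149PT IL4R, IL15RA, IL7R and IL13RA1 were higher and IL13RA2 lower, and in HCC1937 IL7R, IL13RA1, IL13RA2 and IL21R were higher and IL4R lower. The count of 4 in HCC1937 became 2 without replicate 1 or replicate 2, when IL13RA1 (adjusted p = 0.0949 and 0.151) and IL21R (adjusted p = 0.0905 and 0.0788) lost their calls. The 4 JAK kinases gave 2 higher and 1 lower in SUM149PT and none in HCC1937, and the 7 STAT factors gave 4 higher and 3 lower in SUM149PT and 4 lower in HCC1937. Of the 8 ligands, 4 could be tested in SUM149PT, with 2 higher and 1 lower, and 2 in HCC1937, with neither called. These shares stand beside 33.3% of all genes higher and 41.5% lower in SUM149PT and 10.3% higher and 15.3% lower in HCC1937.

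Among 17 inhibitors of JAK-STAT signalling, 16 were tested, with 5 higher and 7 lower in SUM149PT CSCs and 2 higher and 3 lower in HCC1937 CSCs, beside 33.3% of all genes higher and 41.5% lower in SUM149PT and 10.3% and 15.3% in HCC1937. PTPN6, the phosphatase SHP-1 that dephosphorylates JAK kinases, passed an absolute log2 difference of 1 in both lines. It was at 0.637, 0.635 and 0.804 FPKM in SUM149PT CSCs and 16.5, 19.0 and 17.5 FPKM in non-CSCs (25.5-fold lower, log2 difference -4.49, adjusted p = 2.38e-06). In HCC1937 it was at 5.63, 5.51 and 5.30 FPKM in CSCs and 11.03, 13.2 and 12.3 FPKM in non-CSCs (2.22-fold lower, log2 difference -1.13, adjusted p = 0.000684). In SUM159PT PTPN6 was at most 0.0645 FPKM, with 1 library listed at 0.

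Of 12 STAT6 targets, 9 were tested in SUM149PT, with 3 higher and 6 lower in CSCs, and 8 in HCC1937, with 4 lower and none higher, beside 33.3% of all genes higher and 41.5% lower in SUM149PT and 10.3% and 15.3% in HCC1937. Their median log2 difference was -1.02 in SUM149PT and -0.92 in HCC1937, against -0.11 and -0.03 over all genes. The serpins SERPINB2, SERPINB3 and SERPINB4, protease inhibitors that IL-4 and IL-13 induce in epithelial cells, were lower in CSCs of both lines. SERPINB3 was at 7.81, 6.53 and 7.05 FPKM in SUM149PT CSCs against 253, 222 and 211 FPKM in non-CSCs (32.1-fold lower, log2 difference -4.98, adjusted p = 1.81e-06), and at 1.01, 0.967 and 0.946 FPKM in HCC1937 CSCs against 7.77, 7.10 and 6.10 FPKM in non-CSCs (7.19-fold lower, log2 difference -2.72, adjusted p = 0.000133). SERPINB4 was 31.7-fold lower in SUM149PT CSCs (-4.95) and 3.58-fold lower in HCC1937 CSCs (-1.75), and SERPINB2 29.01-fold (-4.84) and 3.24-fold (-1.61) lower. The 3 targets called higher in SUM149PT CSCs, named after their values were seen, were CST1, a cysteine protease inhibitor, POSTN, a matrix protein, and SOCS1, an inhibitor of JAK kinases. CST1 was at 7.43, 9.47 and 5.70 FPKM in CSCs and 0.688, 0.784 and 1.08 FPKM in non-CSCs (8.84-fold higher, log2 difference 3.00, adjusted p = 9.57e-05). SOCS1 was 1.93-fold higher (log2 difference 0.96, adjusted p = 0.00678) and lost its call without replicate 1 (adjusted p = 0.0530), and POSTN, at most 0.281 FPKM, differed by 1.24 (adjusted p = 0.00755) and lost its call without replicate 3 (adjusted p = 0.0511) or with a pseudocount of 0.01 (adjusted p = 0.0598). In HCC1937 CST1 had a log2 difference of 0.53 (adjusted p = 0.638; 1.74 without replicate 3, adjusted p = 0.0125) and SOCS1 of -0.10 (adjusted p = 0.866). SERPINB3 and SERPINB4 are near-identical copies, and their separate levels are uncertain. The 8 epithelial markers fell in CSCs of both lines as well, with median log2 differences of -3.73 and -1.46, and their part in the levels of the STAT6 targets was not tested. IL4R, the receptor upstream of these genes, was higher in SUM149PT CSCs and lower in HCC1937 CSCs.

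Of 9 STAT5 targets, all tested, 2 were higher and 4 lower in SUM149PT CSCs and 1 higher and 3 lower in HCC1937 CSCs. Among 20 other type I cytokine receptors, 10 were tested, with 6 higher and 3 lower in SUM149PT CSCs and 5 higher and 1 lower in HCC1937 CSCs. Over all genes 33.3% were higher and 41.5% lower in SUM149PT CSCs, and 10.3% and 15.3% in HCC1937 CSCs. LIFR, the receptor for leukemia inhibitory factor, was at 6.75, 5.93 and 6.13 FPKM in SUM149PT CSCs against 2.38, 2.40 and 2.48 FPKM in non-CSCs, 2.59-fold higher (log2 difference 1.34, adjusted p = 1.91e-05). In HCC1937 CSCs LIFR was at 0.711, 0.888 and 0.855 FPKM against 0.316, 0.275 and 0.312 FPKM, 2.72-fold higher (log2 difference 1.19, adjusted p = 0.000930).

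**Figure D5:**
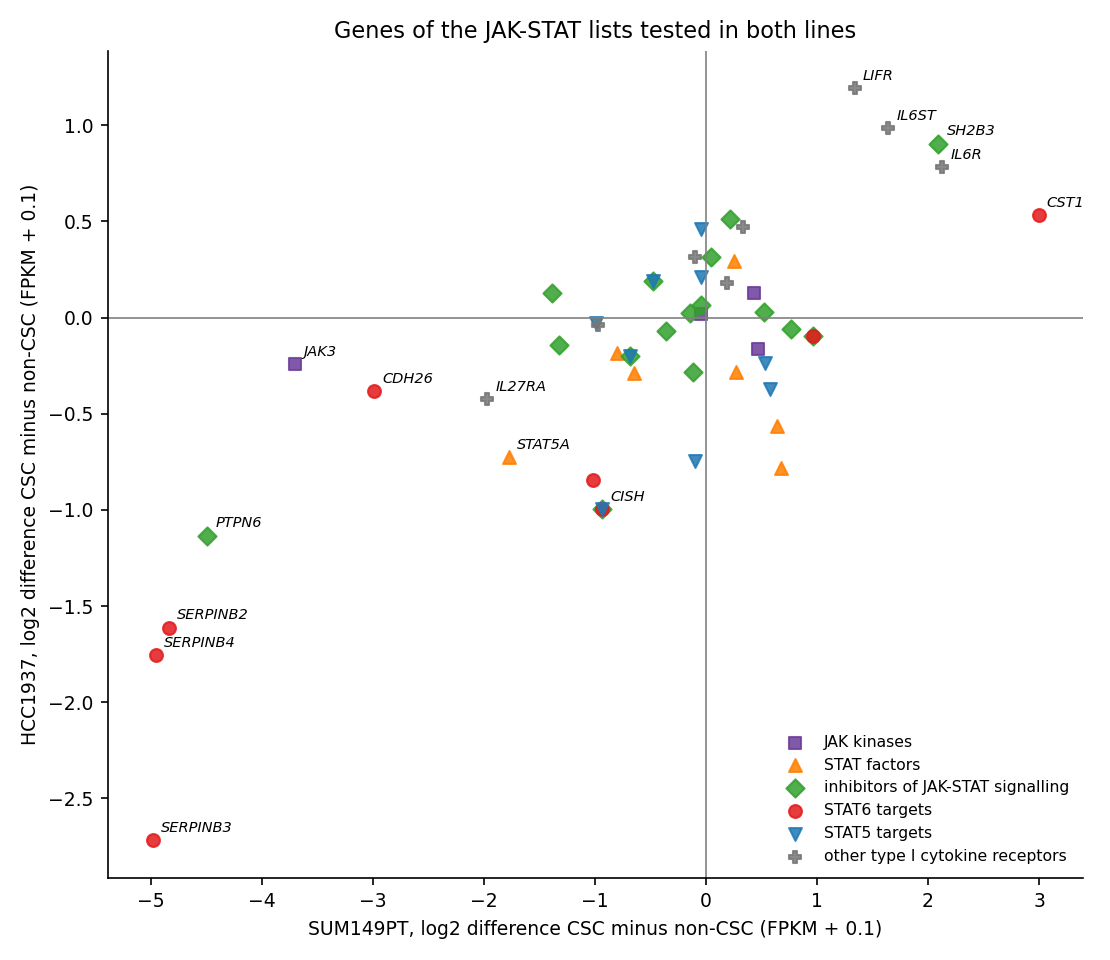
Log2 difference of FPKM + 0.1 between CSCs and non-CSCs for genes of 6 pathway lists tested in both lines, SUM149PT on the horizontal and HCC1937 on the vertical axis; symbols give the list, and names mark genes far from 0. SERPINB3 lies at -4.98 and -2.72, and LIFR at 1.34 and 1.19.

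The genes whose pattern was most like that of IL2RG over the 15 libraries were EVPLL (Pearson r 0.977), VTI1B (0.972), C1orf226 (0.968), PLCG2 (0.966) and MB (0.965), among 12164 genes whose mean reached 1 FPKM. The libraries share lines and groups, so r describes the order of the groups. The set was unstable: of these 5 genes, 5, 3 and 0 stayed among the first 5 without replicates 1, 2 and 3, and 1 stayed with a pseudocount of 1.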

How the data were processed

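For 15 libraries the authors deposited FPKM of 33158 gene symbols, made from oligo(dT)-selected mRNA sequenced on a HiSeq instrument. The submitters' processing notes name Bowtie2 and GRCh38; the quantification tool and annotation are not given in the sources used here. Genes averaging 0.1 FPKM or more were compared with limma 3.58.1 in R 4.3.3 (default empirical Bayes, Benjamini-Hochberg over all genes) on log2(FPKM + 0.1), and calls used an adjusted p up to 0.05. Tables and figures used matplotlib 3.10.9, scipy 1.17.1, pandas 2.3.3 and numpy 2.4.6 in Python 3.11.15, and the fits were tested on simulated data. Named beside the 10 genes were list genes called with an absolute log2 difference of at least 1 in both lines, chains and ligands that pair with IL2RG, and the 5 genes most correlated with IL2RG; TSLP, IL13, CST1, POSTN, SOCS1 and the sort markers were added after their values were seen. Alternatives were pseudocounts of 0.01 and 1, no expression minimum or 1 FPKM, TPM, upper quartile and quantile scaling, a variance trend, a replicate block, 1 fit over 15 libraries, leaving out each replicate and removing a GC trend (longest transcripts of GENCODE release 29). The genes and lists were chosen with earlier results of these data known.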

Additional observations from a re-analysis of the deposited data

Results flagged for a closer look

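The CSC against non-CSC difference was unequal in SUM149PT and HCC1937, by limma's test of the difference itself over 12 libraries, for 15 named genes. Of these, 7 were among the 10 fixed genes, and 7 were named from their values: TSLP and CST1 after their values were seen, and IL13RA2, PTPN6 and the 3 serpins for passing limits in both lines. Among receptors and ligands the log2 difference between the lines was 2.84 for IL4R, 2.15 for IL15RA, 1.03 for IL15, 1.52 for TSLP, -4.54 for IL13RA2 and -1.48 for IL21R. For IL21R it was -1.35 without replicate 1 (adjusted p = 0.0572). The kinases JAK1 and JAK3 differed by 0.63 and -3.46, and the factors STAT6 and STAT5A by -0.62 and -1.05. PTPN6 differed by -3.36, SERPINB2 by -3.23, SERPINB3 by -2.27 and SERPINB4 by -3.20. CST1 differed by 2.46 and lost its call without replicate 1 (adjusted p = 0.0674) or replicate 2 (adjusted p = 0.0925), with a pseudocount of 0.01 (adjusted p = 0.523) and with TPM (adjusted p = 0.211). Leaving out each replicate gave CST1 differences from 1.61 to 3.00. Of all genes tested, 61.1% passed the same test.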

How the results depend on the processing

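Of 1570 alternative values computed, 1462 kept their direction and their side of the limit, or for counts and untested values stayed close, and 11 changed sign with a call on at least 1 side. A further 28 values changed sign without a call on either side. In each case below the cause was not tested.

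IL2RG in SUM149PT, at -1.61 (adjusted p = 0.0142, given for comparison since the gene was selected on this contrast), was -2.94 with a pseudocount of 0.01 (adjusted p = 0.0637) and -1.17 after quantile normalization (adjusted p = 0.0745). Leaving out each replicate gave -2.15 to -0.99, with an adjusted p of 0.0844 without replicate 1. With the replicate block it was -1.61 (adjusted p = 0.0515). Deviations of genes from their group means were correlated between CSC and non-CSC libraries of a line. For same-numbered libraries r was 0.136, 0.0287 and 0.120 in SUM149PT and -0.159, -0.0504 and -0.0355 in HCC1937. Different-numbered libraries gave -0.1945 to 0.0688 in SUM149PT and -0.1091 to 0.1503 in HCC1937. In SUM149PT the values 0.136 and 0.120 lay above that range, so a pairing there was not settled. The numbers were not taken to pair the libraries in the main fits. The replicate block changed calls from 5345 higher and 6648 lower to 5094 and 6398 in SUM149PT. In HCC1937 it changed them from 1607 and 2378 to 1161 and 1905.

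Genes of the 10 called higher in HCC1937 CSCs numbered 2, and 1 with any replicate left out. Over all genes 1607 were called higher there, and 727, 567 and 769 without replicates 1, 2 and 3. Called lower in HCC1937 against SUM149PT non-CSCs were 2, and 1 with an expression minimum of 1 FPKM, which leaves fewer genes tested. Over all genes these calls were 5866 of 16451 and 4401 of 12295. Called higher in SUM159PT were 2 against SUM149PT CSCs, 1 with TPM, and 3 against HCC1937 CSCs, 1 with TPM and 5 after quantile normalization. Calls over all genes moved the same way. Against SUM149PT CSCs 4638 of 16373 genes were higher, and 2368 of 18123 with TPM. Against HCC1937 CSCs the calls were 4515 of 16373, 2502 of 18123 with TPM and 6944 of 16499 after quantile normalization. The order of the 5 group means stayed for 5 of 10 genes with TPM, 3 with upper quartile scaling and 2 after quantile normalization.

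Changes of sign with a call were, between lines, IL2RG 0.56 and IL7R -0.48 with a pseudocount of 1, and JAK1 in CSCs -0.15 with upper quartile scaling. The value of IL2RG is a description, as the gene was selected on the contrasts compared. With the GC trend removed, added after seeing the data, SUM159PT against SUM149PT CSCs changed to 0.44 for IL13RA1 and 0.067 for IL7R, and against HCC1937 CSCs to 0.14 for IL13RA1 and 2.05 for IL15. Against HCC1937 CSCs, IL15 was 1.08 after quantile normalization, and with TPM IL4R was -0.21, STAT6 -0.83 and STAT5A -0.95.

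Without counts, depth limits could not be computed, and levels below 0.1 FPKM, such as IL2RG in SUM149PT CSCs and JAK3 in SUM159PT, are the least certain. A gene listed at 0 was not thereby shown to be absent.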
